A study of Homo sapiens with 6 samples.

Results

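DNA replication and S phase genes encode the proteins that license replication origins, open and copy the DNA, supply deoxynucleotides and repackage the new strands into chromatin. A list of 42 such genes was looked up by Entrez Gene ID in a table of messenger RNA levels, and 41 of the 42 were found among 18795 genes. UHRF1 was not analysed here. All 41 averaged at least 1 FPKM across the libraries, the filter that left 12454 genes for testing. FPKM counts sequenced fragments scaled by transcript length and by the mapped fragments of the library, so that levels of different genes can be set side by side per length.

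The study sorted cells of 2 human lines of basal-like breast cancer, HCC70 and MDA-MB-468, by the antigens keratin 18 (K18), keratin 14 (K14) and vimentin (Vim). The sorted populations were K18+, K18+K14+ and K18+Vim+, each sequenced once per line, which gave 6 libraries. Keratin 18 is typical of luminal epithelium, keratin 14 of basal epithelium and vimentin of mesenchymal cells. The lines carried no added gene and received no drug by the labels. HCC70 was kept in RPMI and MDA-MB-468 in Leibovitz L15 medium, so that line and medium cannot be told apart. Cells were trypsinised, permeabilised with methanol, stained and sorted, and RNA was taken with a kit made for fixed material. With 1 library per population and line, a ratio within a line has no replicate and no test, and in a comparison of populations n = 2. P-values there measure how far these lines differ in the population difference, not the spread between cultures.

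Within HCC70 the libraries correlated with Pearson r from 0.967 to 0.978 over the tested genes, on the log2(FPKM + 1) scale. Within MDA-MB-468 the K18+ and K18+K14+ libraries had r = 0.919. The library labelled K18+Vim+ of MDA-MB-468 stood apart, with r = 0.828 to the K18+ library of its line. SMAD4, a gene that MDA-MB-468 is known to lack, had 5.19 FPKM there against 0.566 and 0.31 in the K18+ and K18+K14+ libraries of that line. RB1, also lost in MDA-MB-468, had 6.68 against 0.307 and 0.269, and EGFR, known to be amplified in it, had 10.4 against 153 and 70.7. The summed level of 4 luminal markers was 193 FPKM there against 2081 and 3028, that of 4 basal markers 45.7 against 533 and 1284, and that of 5 mesenchymal markers 316 against 38.6 and 19.9, with none of the 5 at the floor of 0.1 FPKM. VIM had 259 FPKM there and KRT18, the gene of the antigen shared by all sorts, 67.7. With SEC61G added to these as a 4th line marker, the 4 genes summed to 742 FPKM there. They summed to 5029 and 10071 in the other MDA-MB-468 libraries and to 249.5 to 271.7 in HCC70. SEC61G made up most of each sum, with a mean of 231 FPKM in HCC70 and 5198 in MDA-MB-468. The sum of 10071 includes a SEC61G level at 10000 FPKM, the ceiling of the values, so these sums describe mainly that gene. The levels of SMAD4, RB1 and EGFR go against the label of this library, so calls between the lines are also given without it. In HCC70 the sorted antigens followed the labels. KRT14 had 15.3, 48.6 and 5.76 FPKM, and VIM 13.4, 11.1 and 54.8, in the K18+, K18+K14+ and K18+Vim+ libraries. Immune markers summed to 1.49 to 7.6 FPKM over the 6 libraries and endothelial markers to 0.3 to 0.759.

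In late mitosis and G1 the origin recognition complex, with CDC6 and CDT1, loads the MCM2 to MCM7 ring onto DNA, and geminin blocks CDT1 once S phase has begun. Kinases then recruit CDC45 and GINS, which turn the ring into the active helicase. DNA polymerase alpha with primase lays primers, RFC loads the PCNA clamp, and polymerases epsilon and delta extend the leading and lagging strands. Many of these genes are transcribed in late G1 through E2F factors, which the RB1 protein holds in check, so their messenger RNA is widely used as a mark of proliferating cells.

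The control regions of some of these genes are shown first because a larger share of them held an E2F motif than of promoters at large. The 250 bases before the start site were searched on both strands for the E2F motifs TTTCCCGC, TTTGGCGC, TTTCGCGC and TTTGCCGC, in RefSeq promoters of build GRCh38.p14. Of the 41 genes, 36 had an entry, and 12 of the 36 (33.3%) held a motif, against 4.52% of 10204 promoters of tested genes and 2.79% of all 27305 promoters. In the related lists described below the share ran from 0% (checkpoint and repair genes) to 33.3% (replication-dependent histone genes). It was 25% for genes of G1 and S control. Motifs may overlap, and a match is a description of letters, not of a bound factor. MCM6 held 4 and MCM7 held 2, and 1 each was found for CDT1, MCM3, GINS2, PCNA, RFC3, POLA1, POLA2, POLE, LIG1 and TYMS. The CCAAT box, on either strand, was in 19 of 36 (52.8%) and in 35.2% of the promoters of tested genes. In the related lists its share ran from 29.2% (G1 and S control) to 90.5% (replication-dependent histone genes). The 120 bases before the start are given for 7 genes with a motif and 2 without, chosen because values of these genes recur below. They read 5′ to 3′ on the strand of the gene, with E2F motifs in capitals.
CDT1 (chr16:88803669-88803788, plus strand): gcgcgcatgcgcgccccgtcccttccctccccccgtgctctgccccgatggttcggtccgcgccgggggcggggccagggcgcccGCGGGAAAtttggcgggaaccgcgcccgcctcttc
MCM6 (chr2:135876444-135876563, minus strand, 2 overlapping motifs): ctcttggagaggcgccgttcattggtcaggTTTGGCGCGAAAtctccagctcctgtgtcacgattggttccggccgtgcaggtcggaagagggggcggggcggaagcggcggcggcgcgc
MCM7 (chr7:100101398-100101517, minus strand): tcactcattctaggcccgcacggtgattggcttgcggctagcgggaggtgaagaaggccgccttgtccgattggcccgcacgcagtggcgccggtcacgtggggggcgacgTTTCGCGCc
PCNA (chr20:5126623-5126742, minus strand): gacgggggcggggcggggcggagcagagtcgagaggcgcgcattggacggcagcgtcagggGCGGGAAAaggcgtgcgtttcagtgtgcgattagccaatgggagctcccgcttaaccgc
RFC3 (chr13:33818029-33818148, plus strand): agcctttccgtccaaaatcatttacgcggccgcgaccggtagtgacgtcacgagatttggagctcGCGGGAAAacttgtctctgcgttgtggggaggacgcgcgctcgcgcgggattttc
POLA2 (chr11:65261842-65261961, plus strand): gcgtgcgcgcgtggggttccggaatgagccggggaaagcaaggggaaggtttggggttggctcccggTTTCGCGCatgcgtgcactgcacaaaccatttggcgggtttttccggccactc
TYMS (chr18:657533-657652, plus strand): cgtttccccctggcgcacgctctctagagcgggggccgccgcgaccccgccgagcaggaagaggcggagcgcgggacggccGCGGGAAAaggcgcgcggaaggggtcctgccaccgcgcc
PRIM1 (chr12:56752324-56752443, minus strand, no motif): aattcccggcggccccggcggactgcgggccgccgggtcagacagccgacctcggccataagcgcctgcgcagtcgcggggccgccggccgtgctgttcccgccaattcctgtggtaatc
FEN1 (chr11:61792791-61792910, plus strand, no motif): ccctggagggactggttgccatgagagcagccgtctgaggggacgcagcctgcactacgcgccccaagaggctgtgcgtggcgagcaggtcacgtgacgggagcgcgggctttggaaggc
The motif of PCNA begins 59 bases before the start, that of TYMS 39, that of CDT1 35 and the nearer of the MCM7 motifs 9. The motifs of MCM3 and POLA1 begin 174 and 137 bases before the start, outside the printed stretch, as do the other MCM7 motif (187) and the farther MCM6 pair (152 and 148). No entry was at hand for MCM4, MCM5, GINS4, POLD3 and RPA2.

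All 41 genes were detected in every library, between 1.26 FPKM (GINS4 in HCC70 K18+) and 319 FPKM (POLD1 in MDA-MB-468 K18+K14+). The median level of the 41 genes was 25.7, 29.4 and 18.5 FPKM in the K18+, K18+K14+ and K18+Vim+ libraries of HCC70, and 27.7, 29.9 and 38 in those of MDA-MB-468. Set among the tested genes of the same library, these medians lay at percentiles from 64.5 (HCC70 K18+Vim+) to 80.9 (the library labelled K18+Vim+ of MDA-MB-468). Together the genes took 0.31% to 0.422% of the summed FPKM of a library. The K18+Vim+ library was thus the lowest of its line in HCC70 and the highest in MDA-MB-468. A lower FPKM in a sorted population can come from fewer cells in S phase or from a smaller share of these messenger RNAs within each cell. These cannot be told apart in such samples.

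**Figure D1:**
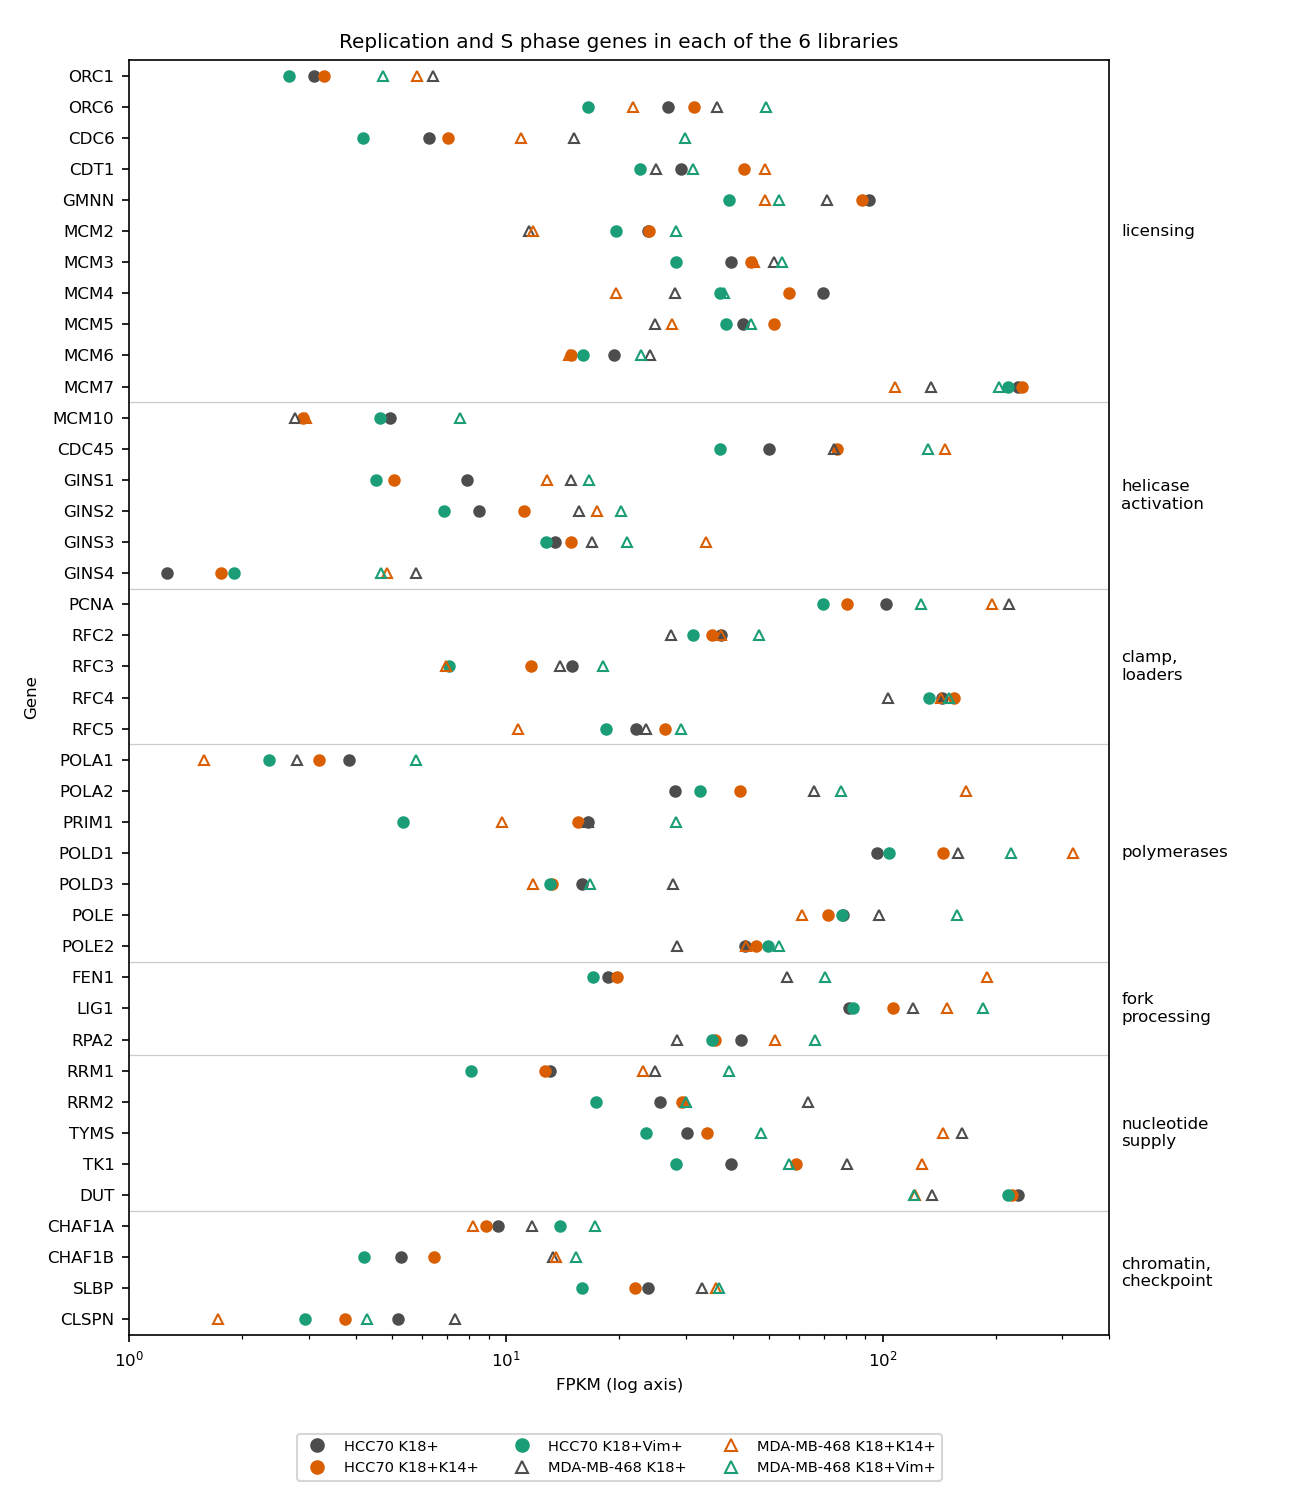
FPKM (log axis) of the 41 genes in the 6 libraries, grouped by role, with filled circles for HCC70 and open triangles for MDA-MB-468 and colours for the sorted populations. In most rows the green circle of HCC70 K18+Vim+ is the leftmost of the 3 circles (32 of 41 genes), and for all 4 GINS genes every triangle lies right of every circle.

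In HCC70 the K18+Vim+ library was low for most replication genes. Of the 41 genes, 35 were lower there than in the K18+ library, where 64.5% of all tested genes were also lower, and 35 were lower than in the K18+K14+ library, against 51.7% of all tested genes. Higher were 6 genes in each case, against 34.4% and 47.3% of all tested genes. With quantile normalization 30 were lower and 11 higher than in K18+, with ORC1, MCM10, GINS3, POLE and FEN1 changing sides. It was the lowest of the 3 HCC70 libraries for 32 genes (78%), against 42.6% of all tested genes. On the log2(FPKM + 1) scale the median ratio of the 41 genes was -0.27 to K18+ (all genes -0.16) and -0.34 to K18+K14+ (all genes -0.02). Below the median ratio of all genes lay 26 of 41 (63.4%) against K18+ and 35 (85.4%) against K18+K14+. By construction 50% of all genes lie below it. The gap to K18+ was thus in good part that of all genes. Few single genes differed much. A ratio past 2-fold lower was reached by 2 of 41 genes against K18+ (3.42% of all genes) and by 4 against K18+K14+ (2.47%), and past 2-fold higher by 0 in both (1.65% and 3%).

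Of the licensing genes, 11 of 11 were lower than in K18+ (64.5% of all tested genes), all but ORC1 with quantile normalization. Only 8 of the 11 lay below the median ratio of all tested genes. Against K18+K14+, 10 of 11 were lower (51.7% of all tested genes), and 10 lay below that median. Geminin (GMNN) had 92.1 FPKM in K18+, 88 in K18+K14+ and 39.2 in K18+Vim+, log2 ratios of -1.21 and -1.15. The K18+Vim+ library was low alone. MCM4 had 69.4, 56.3 and 37.1 FPKM in the same order, and MCM3 39.5, 44.7 and 28.2. Smaller gaps were seen for MCM2 (23.8, 24 and 19.6 FPKM), MCM5 (42.6, 51.5 and 38.4) and MCM7 (229, 234 and 216), all of them subunits of the same ring. MCM6 was the exception, with 19.4, 14.9 and 16 FPKM, lowest in K18+K14+. The loading factors CDC6 (6.25, 7.02 and 4.17 FPKM) and CDT1 (29.3, 43 and 22.7) and the origin subunits ORC6 (26.9, 31.6 and 16.5) and ORC1 (3.09, 3.3 and 2.67) were each lowest in K18+Vim+.

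Among genes of helicase activation, CDC45 had 50.1, 75.9 and 37.1 FPKM in HCC70 K18+, K18+K14+ and K18+Vim+. GINS1, GINS2 and GINS3 were also lowest in K18+Vim+, with GINS1 at 7.89, 5.06 and 4.54. GINS4 at 1.26, 1.76 and 1.89 FPKM and MCM10, which helps to start the helicase, at 4.92, 2.89 and 4.64, were not. The sliding clamp PCNA had 102, 80.6 and 69.5 FPKM. The 4 small subunits of its loader, RFC2 to RFC5, were lowest in K18+Vim+ too, from RFC3 at 15, 11.7 and 7.06 FPKM to RFC4 at 144, 155 and 133. The nucleotide genes were lowest there in 5 of 5 cases (42.6% of all tested genes). These are thymidine kinase TK1 (39.5, 58.7 and 28.3 FPKM), the ribonucleotide reductase subunits RRM1 (13.1, 12.7 and 8.07) and RRM2 (25.7, 29.4 and 17.3), thymidylate synthase TYMS (30.3, 34.1 and 23.6) and the dUTPase gene DUT (229, 221 and 215), whose gap was small.

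The polymerase genes split. PRIM1, the catalytic subunit of primase, had 16.5 FPKM in K18+, 15.6 in K18+K14+ and 5.32 in K18+Vim+, log2 ratios of -1.47 and -1.39. Those were the lowest ratios of the 41 genes, and the gene was named after its values were seen. Primase's partner POLA1, the catalytic subunit of polymerase alpha, had 3.84, 3.19 and 2.35 FPKM. The subunits POLA2 (28.2, 41.8 and 32.7 FPKM), POLD1 (96.4, 144 and 104), POLE (78.3, 71.5 and 78) and POLE2 (43.1, 46.1 and 49.7) were not lowest in K18+Vim+, nor was the DNA ligase LIG1 (81.4, 107 and 83.3). CHAF1A, the large subunit of the histone chaperone CAF-1, went the other way with 9.53, 8.84 and 13.9 FPKM. Its partner CHAF1B had 5.27, 6.44 and 4.19 FPKM, and SLBP, which binds histone messenger RNA, had 23.8, 22 and 15.9. The flap nuclease FEN1 at 18.6, 19.8 and 17 FPKM, the single-strand binding subunit RPA2 at 42, 35.9 and 35.2, the polymerase delta subunit POLD3 at 15.9, 13.3 and 13.1 and the checkpoint adaptor CLSPN at 5.16, 3.74 and 2.93 were lowest in K18+Vim+.

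In MDA-MB-468 the library labelled K18+Vim+ was high for most of the same genes. Of the 41 genes, 30 were higher there than in K18+ (47.8% of all tested genes), with a median log2 ratio of 0.35 (all genes -0.04), and 11 were lower (52%). In the other pair 29 were higher than in K18+K14+ (54.1%), with a median of 0.32 (all genes 0.12), and 12 were lower (45.5%). It was the highest of the 3 libraries for 24 genes (58.5%, against 37.6% of all genes). PRIM1 had 16.5, 9.79 and 28.2 FPKM in K18+, K18+K14+ and the library labelled K18+Vim+. CDC6 had 15.2, 11 and 29.9, MCM2 11.5, 11.8 and 28.4, and RRM1 24.9, 23.2 and 39.1. For these genes the library labelled K18+Vim+ was the highest of its line. TYMS ran against them, with 163, 145 and 47.7 FPKM, as did PCNA with 217, 195 and 126 and RRM2 with 63.2, 29.9 and 30.1. The levels of SMAD4, RB1 and EGFR in this library, given above, go against its label, and the part that its origin has in these ratios was not tested.

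Most of the genes, though not all, had ratios of opposite sign in the lines. Of the 41 genes, 25 (61%) were lower than K18+ in HCC70 K18+Vim+ and higher than K18+ in the library labelled K18+Vim+ of MDA-MB-468, against 30.5% of all tested genes. Lower in both lines were 10 genes (33.9% of all genes) and higher in both 5 (16.5%). Those lower in both with the largest smaller ratio were CLSPN, with 5.16 and 2.93 FPKM in K18+ and K18+Vim+ of HCC70 and 7.31 and 4.27 in those of MDA-MB-468, followed by PCNA and RRM2. Higher in both were CHAF1A, with 9.53 and 13.9 FPKM in HCC70 and 11.7 and 17.2 in MDA-MB-468, followed by POLA2 and POLE2. Against K18+K14+, 24 genes were lower in HCC70 and higher in MDA-MB-468 (27.8% of all genes). Higher in both lines against K18+K14+ were 5 genes (25.6% of all genes), led by CHAF1A, MCM10 and POLE, and lower in both 11 (23.7%), led by TK1, CDT1 and TYMS. TK1 had 58.7 and 28.3 FPKM in K18+K14+ and K18+Vim+ of HCC70 and 127 and 56.4 in those of MDA-MB-468, past 2-fold lower in both lines. Both sets of ratios share the K18+Vim+ libraries.

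**Figure D2:**
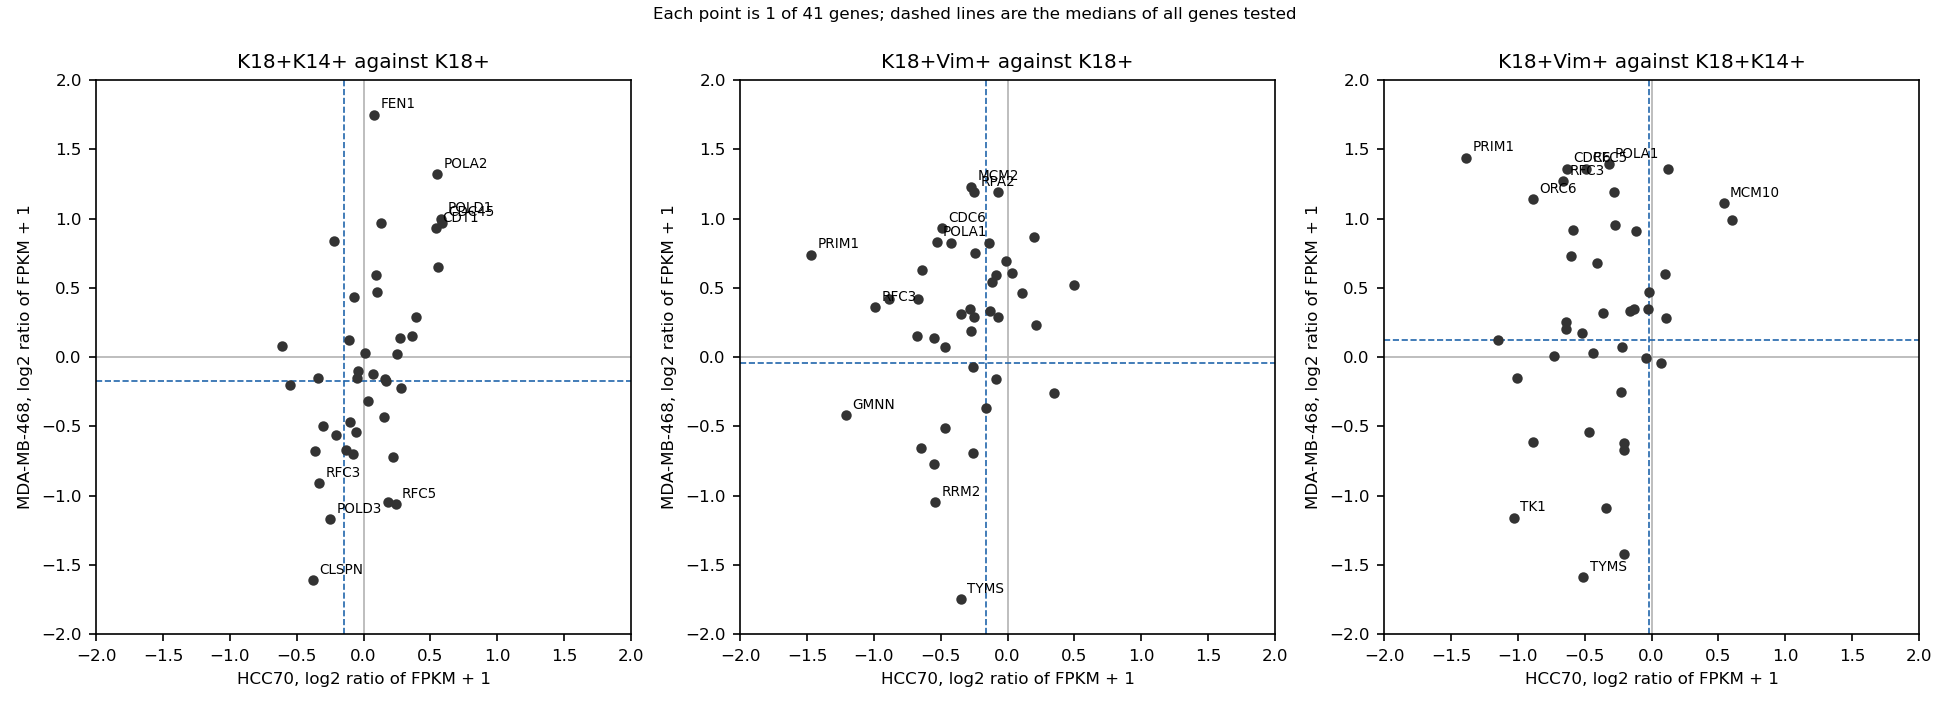
Log2 ratio of FPKM + 1 of each of the 41 genes in HCC70 (horizontal) and MDA-MB-468 (vertical) for the 3 pairs of populations, with dashed lines at the medians of all tested genes. In the panel of K18+Vim+ against K18+, 25 genes lie in the upper left part, lower in HCC70 and higher in the library labelled K18+Vim+ of MDA-MB-468.

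The fit over both lines called no gene of the 41 in any pair of populations. In limma, with terms for population and line and Benjamini-Hochberg adjustment, 0 of 12454 genes (0%) and 0 of 41 genes passed an adjusted p of 0.05 for K18+K14+ against K18+, for K18+Vim+ against K18+ and for K18+Vim+ against K18+K14+. At an unadjusted p under 0.05 limma had 0, 0 and 1 of the 41 genes, against 3.44%, 4.27% and 5.46% of all genes. The 1 gene was TK1, with a fitted log2 difference of -1.10 ± 0.38 (SE) between K18+Vim+ and K18+K14+ and a limma adjusted p of 0.682. The largest fitted differences of K18+K14+ from K18+ were 0.94 ± 0.42 for POLA2 and -1.0 ± 0.47 for CLSPN, both with a limma adjusted p of 0.855. Without the HCC70 K18+Vim+ library the lone K18+Vim+ library left is assumed to vary like the others, and limma then called TYMS for K18+Vim+ against K18+K14+, with a difference of -1.67 and an adjusted p of 0.0466. That value compares the library labelled K18+Vim+ of MDA-MB-468 with the K18+K14+ libraries, and 1988 genes passed with it.

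Between K18+K14+ and K18+ the genes were split. In HCC70, 23 of 41 genes were higher and 18 lower, where 34.2% of all genes were higher and 64.7% lower, with a median log2 ratio of 0.07 (all genes -0.15). No gene was past 2-fold in either direction there (0.771% of all genes higher, 2.33% lower). With quantile normalization the split was 28 higher and 12 lower. In MDA-MB-468, 18 were higher and 23 lower (41.2% and 58.1% of all genes), with a median of -0.15 (all genes -0.17). The 100 highest genes took 36.3% of the summed FPKM in that K18+K14+ library and 25% in the K18+ library. Past 2-fold higher were 3 genes (9.13% of all genes), namely FEN1 with 55.6 FPKM in K18+ and 189 in K18+K14+, POLA2 with 65.9 and 166, and POLD1 with 159 and 319. Past 2-fold lower were 4 genes (15.5% of all genes): CLSPN with 7.31 and 1.72 FPKM, POLD3 with 27.7 and 11.8, RFC5 with 23.6 and 10.8, and RRM2 with 63.2 and 29.9. Both counts in MDA-MB-468 are near or below the background of all genes. In both lines 14 genes were higher (20.2% of all genes) and 14 lower (43.7%). Leading the higher ones were CDC45 (50.1 to 75.9 FPKM in HCC70, 74.2 to 146 in MDA-MB-468), POLD1 (96.4 to 144, 159 to 319) and TK1 (39.5 to 58.7, 80.7 to 127). CLSPN, MCM6 and RFC3 led the lower ones. RFC3 had 15 and 11.7 FPKM in HCC70 and 13.9 and 6.95 in MDA-MB-468.

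The base composition of the transcripts moved with some of these ratios. Across the 41 genes the GC content of the longest coding transcript ran from 39.1% to 65%, and its Spearman correlation with the K18+K14+ to K18+ ratio was 0.555 for HCC70 and 0.535 for MDA-MB-468. Over the 12436 tested genes with a transcript it was 0.514 and 0.39. These are correlations across genes of 1 pair of libraries, and genes are not independent replicates. Genes higher in K18+K14+ in both lines include POLD1 at 65% GC, CDT1 at 64.9% and TK1 at 62.8%. Genes lower in both include RFC3 at 39.1% and MCM6 at 43.1%. Others ran against this order. POLE2 at 43.7% and RFC4 at 45.4% were higher in both lines, and CHAF1A at 57.6% and POLE at 56.4% lower in both. The part of base composition in these ratios was not tested beyond removing its trend. For K18+Vim+ against K18+ in HCC70 the correlation was 0.458 (all genes 0.454). For K18+Vim+ against K18+K14+ in HCC70 it was -0.023 (all genes -0.0139), and there 17 of the 21 genes of lower GC and 18 of the 20 of higher GC were lower in K18+Vim+. With the GC trend of all genes removed, a step added after the data were seen, 35 of 41 genes were lower against K18+ in HCC70 K18+Vim+, with 4 genes changing sides, and against K18+K14+ the 35 lower genes stayed the same. Transcript length correlated with the K18+K14+ to K18+ ratio at -0.0826 in HCC70 (all genes -0.248) and -0.249 in MDA-MB-468 (all genes -0.325). The largest correlation of the 41 genes with length was 0.369, for K18+Vim+ against K18+K14+ in MDA-MB-468 (all genes 0.164).

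**Figure D3:**
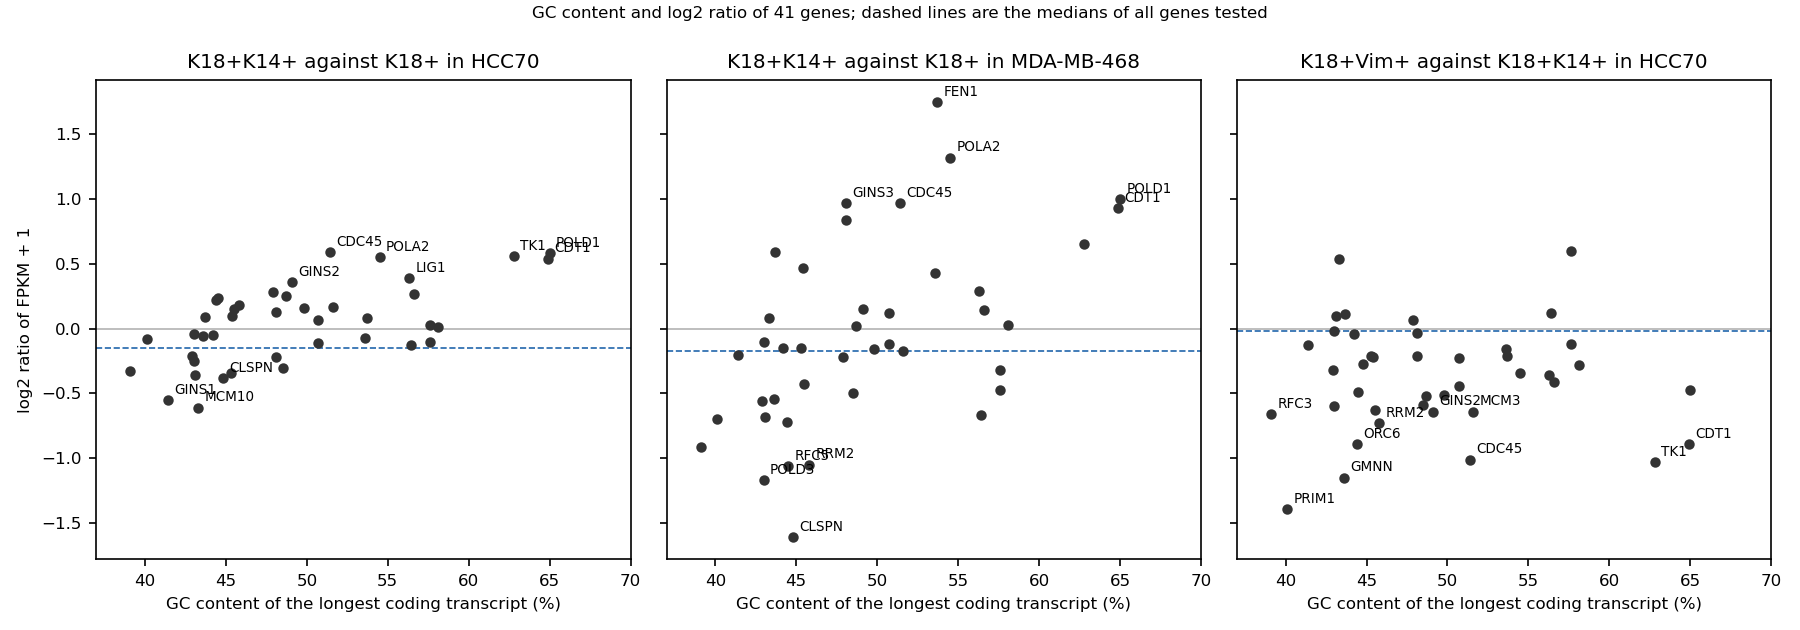
Log2 ratio of FPKM + 1 of the 41 genes against the GC content of the longest coding transcript, in percent, for 3 pairs of libraries, with dashed lines at the medians of all tested genes. The ratio of K18+K14+ to K18+ climbs with GC in both lines (Spearman 0.555 and 0.535), and that of K18+Vim+ to K18+K14+ in HCC70 does not (-0.023).

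Between the lines more could be tested, with 3 libraries each. These are the 3 sorted populations of a line, each sequenced once, and not replicate cultures. P-values here measure how far the line difference varies between populations, not the spread between cultures. In limma 4 of the 41 genes passed, all higher in MDA-MB-468, which is 9.76% of them against 12.2% of all 12454 genes, so that as a group they were not called more often than others. At an unadjusted p under 0.05 limma had 14 of 41 (34.1%) against 33% of all genes. FEN1, which trims the flaps of lagging-strand fragments, had 18.6, 19.8 and 17 FPKM in HCC70 K18+, K18+K14+ and K18+Vim+ and 55.6, 189 and 70.3 in the same populations of MDA-MB-468. The 3 libraries of each line did not overlap. The means were 18.5 ± 1.39 and 105 ± 73.2 FPKM (SD over the 3 populations, n = 3). For FEN1 limma gave a log2 difference of 2.24 ± 0.41 (SE) with an adjusted p of 0.0265. TYMS, which makes thymidylate, had 30.3, 34.1 and 23.6 FPKM in HCC70 and 163, 145 and 47.7 in MDA-MB-468, a limma difference of 1.81 ± 0.39 with an adjusted p of 0.0358. Its lowest MDA-MB-468 value was in the library labelled K18+Vim+, still above every HCC70 library. POLA2, the regulatory subunit of polymerase alpha, had 28.2, 41.8 and 32.7 FPKM against 65.9, 166 and 77.6, a limma difference of 1.46 ± 0.34 with an adjusted p of 0.043. CHAF1B had 5.27, 6.44 and 4.19 FPKM against 13.4, 13.6 and 15.4, a limma difference of 1.28 ± 0.32 with an adjusted p of 0.0483. For POLA2 and CHAF1B, too, every MDA-MB-468 library lay above every HCC70 library. When any 1 of the K18+ or K18+K14+ libraries was left out, 0 of the 41 genes passed, with limma adjusted p from 0.0781 to 0.213 for FEN1, TYMS and POLA2.

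Without the library labelled K18+Vim+ of MDA-MB-468, limma called 6 of the 41 genes (14.6%, against 26.9% of all genes). These were FEN1 at 2.36, TYMS at 2.22, POLA2 at 1.58, GINS4 at 1.33 and CHAF1B at 1.08, all higher in MDA-MB-468, and MCM4 at -1.38. Their limma adjusted p ran from 0.00325 (TYMS) to 0.0419 (CHAF1B). GINS4 had 1.26, 1.76 and 1.89 FPKM in HCC70 and 5.79, 4.83 and 4.67 in MDA-MB-468. With all libraries its limma difference was 1.21 ± 0.33 with an adjusted p of 0.0601.

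By role, the separation of the lines was uneven. Of the 41 genes, 17 were higher in all 3 MDA-MB-468 libraries than in all 3 of HCC70 (20.1% of all tested genes), and 2 were lower (21%). Without the library labelled K18+Vim+ of MDA-MB-468 there were 18 higher (28% of all genes) and 5 lower (28%). The whole GINS complex belonged to the higher ones, with means of 5.83 and 14.8 FPKM for GINS1 in HCC70 and MDA-MB-468, 8.83 and 17.8 for GINS2, 13.7 and 24 for GINS3 and 1.64 and 5.1 for GINS4. No GINS gene passed limma with all libraries, where their adjusted p ran from 0.0554 to 0.183. PCNA, at 102, 80.6 and 69.5 FPKM in HCC70 and 217, 195 and 126 in MDA-MB-468, did not overlap either, with a limma difference of 1.06 ± 0.33 and an adjusted p of 0.0824. CDC6 (limma difference 1.44 ± 0.44, adjusted p 0.0788) and RRM1 (1.28 ± 0.38, adjusted p 0.0737) were separated likewise. The others without overlap were ORC1, MCM3, POLD1, LIG1, RRM2 and SLBP, each higher in MDA-MB-468.

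Most genes of the MCM ring lay the other way from GINS in the K18+ and K18+K14+ libraries of MDA-MB-468. DUT had 229, 221 and 215 FPKM in HCC70 and 135, 122 and 121 in MDA-MB-468, and MCM7 229, 234 and 216 against 135, 108 and 203. These were the 2 genes lower in MDA-MB-468 without overlap. MCM4 had 69.4, 56.3 and 37.1 FPKM against 28.1, 19.6 and 38, so that the library labelled K18+Vim+ of MDA-MB-468 reached into the range of HCC70. The same held for MCM5 (42.6, 51.5 and 38.4 against 24.9, 27.5 and 44.6). For MCM2 (23.8, 24 and 19.6 against 11.5, 11.8 and 28.4) that library lay above every HCC70 library. For each of MCM2, MCM4, MCM5 and MCM7 the K18+ and K18+K14+ libraries of MDA-MB-468 lay below all of HCC70. MCM3 and MCM6 did not share this, with 39.5, 44.7 and 28.2 against 51.4, 45.6 and 54.2 FPKM for MCM3 and 19.4, 14.9 and 16 against 24.1, 14.7 and 22.9 for MCM6. With all libraries the limma differences were -0.91 ± 0.40 for MCM4, -0.81 ± 0.33 for DUT, -0.65 ± 0.37 for MCM7, -0.48 ± 0.40 for MCM2 and -0.47 ± 0.36 for MCM5, and their limma adjusted p ran from 0.149 (DUT) to 0.44 (MCM2).

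**Figure D4:**
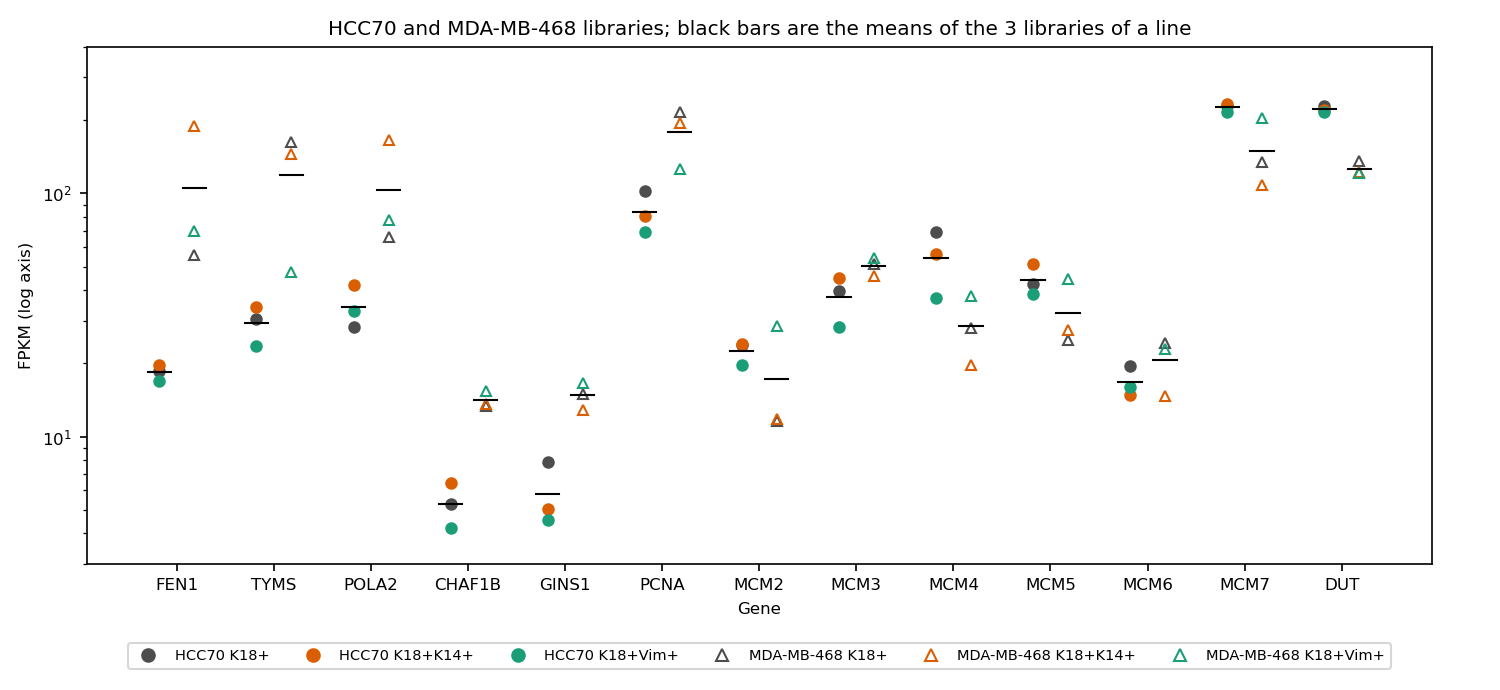
FPKM (log axis) in the 3 libraries of HCC70 (filled circles) and of MDA-MB-468 (open triangles) for 13 genes, with a black bar at the mean of each line. FEN1, TYMS, POLA2, CHAF1B, GINS1 and PCNA are separated upward in MDA-MB-468, MCM7 and DUT downward, and the green triangles (library labelled K18+Vim+) of MCM4 and MCM5 lie within the range of HCC70 and that of MCM2 above it.

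Taken by population, the gap between the lines was widest in K18+Vim+. In K18+, 26 of 41 genes were higher in MDA-MB-468 and 15 lower (49% and 50.8% of all genes), with 9 past 2-fold higher (11.5%) and 1, MCM4, past 2-fold lower (15.4%). In K18+K14+, 23 were higher and 18 lower (47.4% and 52.2%), with 9 past 2-fold higher (19.2%) and 3 lower (21.7%), namely MCM4, MCM7 and RFC5. In K18+Vim+, 39 were higher and 2 lower (53.1% and 46.9%), with 16 past 2-fold higher (20.5%) and 0 lower (20.4%). The medians were 0.37, 0.03 and 0.89 on the log2 scale, beside -0.02, -0.07 and 0.09 over all genes. DUT and MCM7 were the genes lower in MDA-MB-468 in the last comparison. Its high count sets the HCC70 library that was low for these genes against the library labelled K18+Vim+ of MDA-MB-468.

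Levels within the complexes were far from equal. MCM7 was the highest of the MCM2 to MCM7 genes in every library, at 8.88 to 15.8 times the lowest, which was MCM6 in the HCC70 libraries and MCM2 in the K18+ and K18+K14+ libraries of MDA-MB-468. The 6 genes summed to 424, 425 and 355 FPKM in HCC70 K18+, K18+K14+ and K18+Vim+ and to 275, 227 and 391 in MDA-MB-468. RFC4 exceeded RFC3 by 7.41 to 20.6 times. The ratio of CDT1 to its inhibitor geminin was 0.318, 0.488 and 0.58 in HCC70 and 0.352, 0.997 and 0.593 in MDA-MB-468, lowest in K18+ in both lines. These genes differ in GC content (64.9% and 43.6%). The ratio of RRM2 to RRM1, the small and large subunits of ribonucleotide reductase, was 1.96, 2.31 and 2.15 in HCC70 and 2.54, 1.29 and 0.77 in MDA-MB-468, so that only the library labelled K18+Vim+ of MDA-MB-468 had more RRM1 than RRM2.

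Some of these values carry a doubt about which gene the fragments came from, since strand use in counting is not given in the sources used here. Exons of 10 of the 41 genes overlap another gene, among them TYMS with ENOSF1 on the opposite strand (719 bases), MCM7 with AP4M1 on the opposite strand (216 bases) and FEN1 with TMEM258 on the opposite strand (166 bases) and FADS2 on the same strand. On the same strand lie overlaps of POLA2 (444 bases), RRM2 (159), POLD1 (133) and PRIM1 (101), which a strand setting would not resolve. PRIM1 has a further overlap on the opposite strand (123 bases). The others are GINS2, MCM2 and RFC4. Pseudogenes with the name of the gene are annotated for 8 of the 41 genes. These are DUT with 8, PCNA, RPA2 and RRM2 with 3 each, TYMS with 2, and RFC3, RFC5 and FEN1 with 1 each. Their part in the levels was not tested.

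Other replication factors, a list of 40 genes such as the remaining ORC, RPA and polymerase subunits, were also mostly lower in HCC70 K18+Vim+. There 31 of 40 were below K18+ (64.5% of all genes) and 32 below K18+K14+ (51.7%). Below the median ratio of all genes lay 26 of 40 (65%) against K18+ and 31 (77.5%) against K18+K14+. RFC1, the large subunit of the clamp loader, had 18.1, 11.1 and 6.06 FPKM in HCC70, and DNA2, a nuclease of flap processing, 7.53, 5.62 and 2.35. RECQL4, a helicase of origin firing, was lowest in K18+ in both lines. It had 103, 219 and 156 FPKM in HCC70 and 158, 426 and 346 in MDA-MB-468, and its transcript has 65.5% GC. In MDA-MB-468 K18+K14+, 14 of the 40 were past 2-fold lower than in K18+ (15.5% of all genes) and 3 higher (9.13%). Limma called 0 of 40 in any comparison of all libraries. Between the lines 8 of 40 (20%) had an unadjusted p under 0.05 in limma, against 33% of all genes, among them POLD4, a small subunit of polymerase delta (limma difference -1.67, adjusted p 0.0531). Without the library labelled K18+Vim+ of MDA-MB-468 limma called 8 of 40 (20%, against 26.9% of all genes), with POLD4 at -1.12 and an adjusted p of 0.0393.

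Genes of G1 and S control, 29 in number, were lower in HCC70 K18+Vim+ than in K18+ for 24 (64.5% of all genes) and lower than in K18+K14+ for 21 (51.7%). Against K18+, 22 of 29 (75.9%) lay below the median ratio of all genes. E2F1, a factor that drives S phase genes, had 25.3, 33.6 and 25.4 FPKM in HCC70 and 36.2, 57 and 33.7 in MDA-MB-468. It was highest in K18+K14+ in both lines, and its transcript has 62.5% GC. Limma called 1 of 29 between the lines (3.45%, against 12.2% of all genes), the phosphatase gene CDC25A, with 2.29, 2.43 and 1.54 FPKM in HCC70 and 5.29, 8.59 and 15.6 in MDA-MB-468 (difference 1.71, adjusted p 0.048). Its highest value is that of the library labelled K18+Vim+ of MDA-MB-468, and without that library the limma difference was 1.21 with an adjusted p of 0.0307. With both K18+Vim+ libraries left out the ratio of the line means went from 4.7 to 2.94. The CDK inhibitor gene CDKN2A had 526, 573 and 629 FPKM in HCC70 and 165, 200 and 301 in MDA-MB-468, with a limma difference of -1.41 and an adjusted p of 0.0539, and without that library -1.59 and 0.039. In that fit limma called 7 of 29 (24.1%, against 26.9% of all genes). Of 20 checkpoint and repair genes, 17 were lower in HCC70 K18+Vim+ than in K18+ (64.5% of all genes). Only 12 of the 20 (60%) lay below the median ratio of all genes. Limma called 0 of the 20 between the lines, with 6 at an unadjusted p under 0.05 (30%, against 33% of all genes). Without the library labelled K18+Vim+ of MDA-MB-468 it called 3 of 20 (15%, against 26.9% of all genes).

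Genes of G2 and mitosis, 24 in number, were lower in HCC70 K18+Vim+ than in K18+ for 19 (64.5% of all genes) and lower than in K18+K14+ for 18 (51.7%). Against K18+, 14 of 24 (58.3%) lay below the median ratio of all genes. MKI67, a proliferation marker, had 17.5, 15.2 and 15.8 FPKM there. In MDA-MB-468 the library labelled K18+Vim+ was lower than K18+ for 15 of the 24 (52% of all genes), where 30 of the 41 replication genes were higher, and higher than K18+K14+ for 18 (54.1%). In K18+K14+ of that line 12 of the 24 were past 2-fold lower than in K18+ (15.5%). Between the lines limma called 3 of 24 (12.5%, against 12.2% of all genes), all higher in MDA-MB-468, namely BIRC5, TOP2A and UBE2C, with adjusted p of 0.0313, 0.048 and 0.0496. Without the library labelled K18+Vim+ of MDA-MB-468 limma called 5 of 24 (20.8%, against 26.9% of all genes). BIRC5, TOP2A and UBE2C were among them, with limma adjusted p of 0.0162, 0.0387 and 0.0467. Replication-dependent histone genes lack a poly(A) tail for the most part. Of 23 listed, 7 were in the table and 2 passed the filter, H1-2 and H4C8, so that they give little on S phase here. H4C8 had 8.65, 6.01 and 6.75 FPKM in HCC70 and 1.52, 2.83 and 0.883 in MDA-MB-468, with a limma difference of -1.62 and an adjusted p of 0.0413, and -1.40 and 0.0257 without that library.

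Ratios of genes with and without the E2F motif are set side by side with no test. In HCC70 K18+Vim+ against K18+, the median log2 ratio was -0.32 for the 12 genes with a motif and -0.27 for the 24 without (all genes -0.16). Lower were 10 of 12 and 21 of 24 (64.5% of all tested genes). Between the lines in the K18+ population the medians were 0.34 and 0.42 (all genes -0.02). RB1 itself had 2.24, 1.43 and 2.04 FPKM in HCC70 and 0.307, 0.269 and 6.68 in MDA-MB-468.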

How the data were processed

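RNA of sorted, methanol-fixed cells was sequenced in 6 libraries. The authors deposited a table of FPKM with 18807 rows, keyed by Entrez Gene ID. TopHat2 and the build GRCh37 are named, per the submitters' processing notes. The sources used here do not give the aligner version, counting tool, annotation or strand setting. FPKM keeps no read counts, so the depth of each library is unknown and intervals for counting error cannot be set. RNA of fixed cells may be broken, which FPKM does not correct. In HCC70 the K18+ and K18+Vim+ libraries share an index sequence by the labels, and lanes are not stated.

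Rows with a blank value (7) were dropped, and 5 IDs with 2 rows kept the one of higher mean, leaving 18795 genes. Symbols matched for 18732 and not for 63. Genes averaging 1 FPKM or more were fitted as log2(FPKM + 1), pseudocount 1, with limma 3.58.1 in R 4.3.3 (eBayes with trend, terms population and cell line, all libraries, Benjamini-Hochberg at 0.05, checked on simulated data). The scale understates differences of low genes. Populations are paired through the line, which gave 1 library of each. Per-line ratios are log2 ratios of FPKM + 1, and 2-fold is counted on that scale. Percentiles are among tested genes of a library. Transcript lengths, GC and exon overlaps came from GENCODE v29 (longest coding transcript), promoters from RefSeq. Python 3.11.15, pandas 2.3.3, numpy 2.4.6, scipy 1.17.1 and matplotlib 3.10.9 were used.

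The members and lists were chosen with earlier results of these data known. All 41 members found are accounted for. Given in every library by rule were the 3 members per direction with the largest smaller ratio among those of 1 sign in both lines, the 5 per direction with the largest line difference, MCM2 to MCM7, PCNA, and of other lists up to 4 genes. One gene named by this rule is not reported here. Other members were added after their values were seen. Alternatives were no block for cell line or population, only the libraries compared, pseudocounts of 0.1 and 5, no filter, a minimum of 5 FPKM, quantile normalization, a length trend removed, limma without trend, each library left out, and, added after the data were seen, a GC trend removed.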

Additional observations from a re-analysis of the deposited data

Results flagged for a closer look

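With 1 library per population and line, the differences between lines given here were not tested, and those of K18+Vim+ rest on the library labelled K18+Vim+ of MDA-MB-468, whose levels of SMAD4, RB1 and EGFR go against its label. They are listed because the ratios point in opposite directions in the lines, all by at least 0.5 on the log2 scale for single genes and 0.1 for medians.

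For K18+Vim+ against K18+, the median of the 41 genes relative to all genes was -0.10 for HCC70 and 0.39 for MDA-MB-468, a gap of 0.49. Primase and polymerase alpha showed wider gaps. PRIM1 had -1.47 and 0.74, a gap of 2.21, and POLA1 had -0.53 and 0.83, a gap of 1.36. RRM1 had -0.64 and 0.63, a gap of 1.27.

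For K18+Vim+ against K18+K14+ the relative median was -0.33 for HCC70 and 0.20 for MDA-MB-468, a gap of 0.53. PRIM1 again had the widest gap, 2.83, from -1.39 to 1.44. The origin genes ORC6 and CDC6 had gaps of 2.03 and 2.0, RFC3 of the clamp loader 1.92, MCM4 of the helicase 1.51 and RRM1 1.33.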

How the results depend on the processing

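No count of reads is at hand, so the precision of low levels such as GINS4 or POLA1 is unknown. A p for a pair of populations, with n = 2 libraries in each, rests on 2 residual degrees of freedom. The counts of the 41 genes lower in HCC70 K18+Vim+ held within 30 to 35 of 41 against K18+ and 34 to 35 against K18+K14+ under quantile normalization (30 and 34), a length trend removed (34 and 34) and a GC trend removed (35 and 35). Under quantile normalization ORC1, MCM10, GINS3, POLE and FEN1 turned to higher against K18+.

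Without the block (no pairing by cell line, or no population term), 0 of the 41 genes passed for each pair of populations, as with the block, and 7 between the lines instead of 4. Between the lines 6 of the 41 and 3366 genes passed with only the K18+ and K18+K14+ libraries, and 0 and 0 with no filter. Leaving out 1 library gave 0 to 6 of the 41 and 206 to 3360 genes. The highest counts came without a K18+Vim+ library. For the populations, leaving out 1 library gave 0 to 1 genes for K18+K14+ against K18+, 0 to 1500 for K18+Vim+ against K18+ and 0 to 1988 for K18+Vim+ against K18+K14+, and in the last 0 to 1 of the 41. The highest of the last 2 came without HCC70 K18+Vim+.

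The relative median of the 41 genes in MDA-MB-468 K18+K14+ against K18+, 0.02, was -0.15 with no filter. Of the counts past 2-fold, those for K18+K14+ against K18+ in MDA-MB-468 went from 4 lower to 0 with a pseudocount of 5, 2 with quantile normalization, 7 with the length trend removed and 1 with the GC trend removed. For K18+Vim+ against K18+ in MDA-MB-468, 3 higher became 6 with quantile normalization, and 2 lower became 1 with a pseudocount of 5, quantile normalization or the length trend removed. For K18+Vim+ against K18+K14+, 4 lower in HCC70 became 1 with a pseudocount of 5, 9 higher in MDA-MB-468 became 5 with it, and 4 lower in MDA-MB-468 became 1 with quantile normalization and 2 with the GC trend removed. RFC3 in K18+K14+ against K18+ ran from -1.25 to 0.01 when each library was left out, the latter without MDA-MB-468 K18+K14+. Where no construction is named, the cause was not tested.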
